A study of Mus musculus with 6 samples.

Results

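The genes described here encode the protein folding machinery of the endoplasmic reticulum (ER) and the sensors, transcription factors and output genes of the unfolded protein response. They were chosen as a list of 39 symbols, and all 39 were found among the 14788 symbols of the count table. RNA was sequenced from type-2 conventional dendritic cells (cDC2s) of the spleen of C57BL/6 mice, with 3 libraries labelled Arhgef1-/- and 3 labelled WT. Arhgef1 encodes an exchange factor that activates the GTPase RhoA. No treatment, age or sex of the mice is given in the labels, and neither is the design of the Arhgef1 allele or the way the cells were sorted. Each level is given in CPM, the counts of a gene relative to the library's total after that total was scaled by TMM, a method that equalises libraries on the bulk of their genes. A gene is said to have risen or fallen where edgeR's quasi-likelihood test gave a Benjamini-Hochberg adjusted p under 0.05 over all tested genes, and fold changes are of Arhgef1-/- over WT.

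Secreted and membrane proteins fold in the ER with the help of chaperones, disulfide isomerases and the calnexin and calreticulin lectin cycle, and proteins that fail to fold are moved back to the cytosol and degraded. When folding falls behind, the sensors Ern1 (IRE1), Eif2ak3 (PERK) and Atf6 raise folding capacity through the transcription factors Xbp1, Atf4 and Atf6 itself. Atf4 is also induced through other kinases of the integrated stress response, for example on amino acid shortage. In mouse dendritic cells the IRE1 and XBP1 branch is best known from the cDC1 subset.

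The targeted gene was lower in the Arhgef1-/- libraries, with 115, 128 and 144 CPM, against 287, 317 and 246 CPM in WT (log2 fold change -1.13 ± 0.11 SE, edgeR adjusted p = 6.96e-06). Total counts ran from 8408325 to 11714365 in Arhgef1-/- and from 8546267 to 10702215 in WT. Names in the labels place all Arhgef1-/- libraries in another sequencing lane and another library series than the WT ones, so genotype, lane and library series cannot be told apart. Nothing in the labels ties each library to its own mouse, and the tests therefore reflect variation among libraries that may be technical. The summed level of 12 cDC2 markers was 10364 to 11227 CPM in Arhgef1-/- and 12386 to 13756 CPM in WT. H2-Ab1 made up most of that sum, at 6497 to 7016 CPM in Arhgef1-/- and 7682 to 9050 CPM in WT. Of the 11 tested markers 5 fell and 6 did not pass. The 1 untested marker, Clec10a, averaged 0.278 CPM in Arhgef1-/- and 0.39 CPM in WT. Macrophage markers summed to 299 to 469 CPM in Arhgef1-/- and 816 to 1272 CPM in WT (14 of 18 tested markers fell, and Vsig4 had 0 counts in all Arhgef1-/- libraries). Markers of cycling cells summed to 3070 to 3580 CPM in Arhgef1-/- and 1419 to 1783 CPM in WT (10 of 10 rose). B and plasma cell markers were listed because plasma cells are rich in ER. They summed to 99.2 to 139 CPM in Arhgef1-/- and 73.9 to 130 CPM in WT, and 0 of 9 tested markers passed the edgeR test. The joining chain gene Igj alone was higher at an unadjusted p under 0.05, where 1334 of all 11504 tested genes were. T and NK cell markers summed to 60.5 to 119 CPM in Arhgef1-/- and 54.4 to 73.7 CPM in WT (1 of 4 tested markers, Tcf7, rose). Tcf7 made up most of that sum, at 56.4 to 104 CPM in Arhgef1-/- and 49.1 to 59.1 CPM in WT. The other tested markers, Cd3e, Lck and Ncr1, averaged 2.54, 2.43 and 1.23 CPM in Arhgef1-/-. In WT they averaged 3.28, 1.34 and 0.866 CPM. Plasmacytoid dendritic cell markers summed to 590.5 to 655 CPM in Arhgef1-/- and 539 to 589 CPM in WT (1 of 6 tested markers, Spib, rose). Most of that sum was Lair1, Tcf4 and Spib, with means of 316, 173 and 109 CPM in Arhgef1-/- and 329, 151 and 62.2 CPM in WT. The tested markers Siglech, Ccr9 and Bst2 averaged 2.92, 13.4 and 13.1 CPM in Arhgef1-/- and 2.99, 11.3 and 11.7 CPM in WT. The cDC1 markers summed to 221, 105 and 109 CPM in Arhgef1-/- and 129 to 193 CPM in WT (1 of 8 tested markers, Cadm1, fell), with Arhgef1-/- replicate 1 apart from replicates 2 and 3. Beside these counts of markers, 5.09% of all 11504 tested genes rose and 4.58% fell. The part that these other cell type and cycling markers play in the values below was not tested. In RNA from bulk cells, fewer cells of a type and less RNA per cell cannot be told apart.

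Of the ER machinery 3 genes rose, and no other member passed the test. They were the lectin chaperone gene Canx, the disulfide isomerase gene P4hb and the transcription factor gene Atf4. Of the 36 genes that passed the filter on low counts, these 3 made up 8.33%, where 5.09% of all 11504 tested genes rose and 9.67% changed in either direction. By edgeR 0 of the 36 fell, where 4.58% of all tested genes did. DESeq2 and limma-voom also gave 0 falls. At an unadjusted p under 0.05 by edgeR, 8 of the 36 were higher and 2, Derl1 and Chac1, were lower. Over all 11504 tested genes 1334 were higher and 1234 lower at that threshold. The median log2 fold change of the 36 was 0.13, beside 0.00032 over all tested genes, with 23 values above zero and 13 below. In 9 of the 36 genes all Arhgef1-/- libraries lay above all WT libraries, and in 6 they lay below. Over all tested genes 13.7% lay above and 13.5% below. The groups thus did not overlap in 41.7% of the 36, where the same held for 27.2% of all tested genes. Without Arhgef1-/- replicate 2, WT replicate 1 or WT replicate 2, Canx alone passed the test, and without WT replicate 3 Canx and Atf4 did. Without Arhgef1-/- replicate 1, Canx, P4hb and Hspa5 passed. The median of the 36 was 0.050 without Arhgef1-/- replicate 2.

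**Figure D1:**
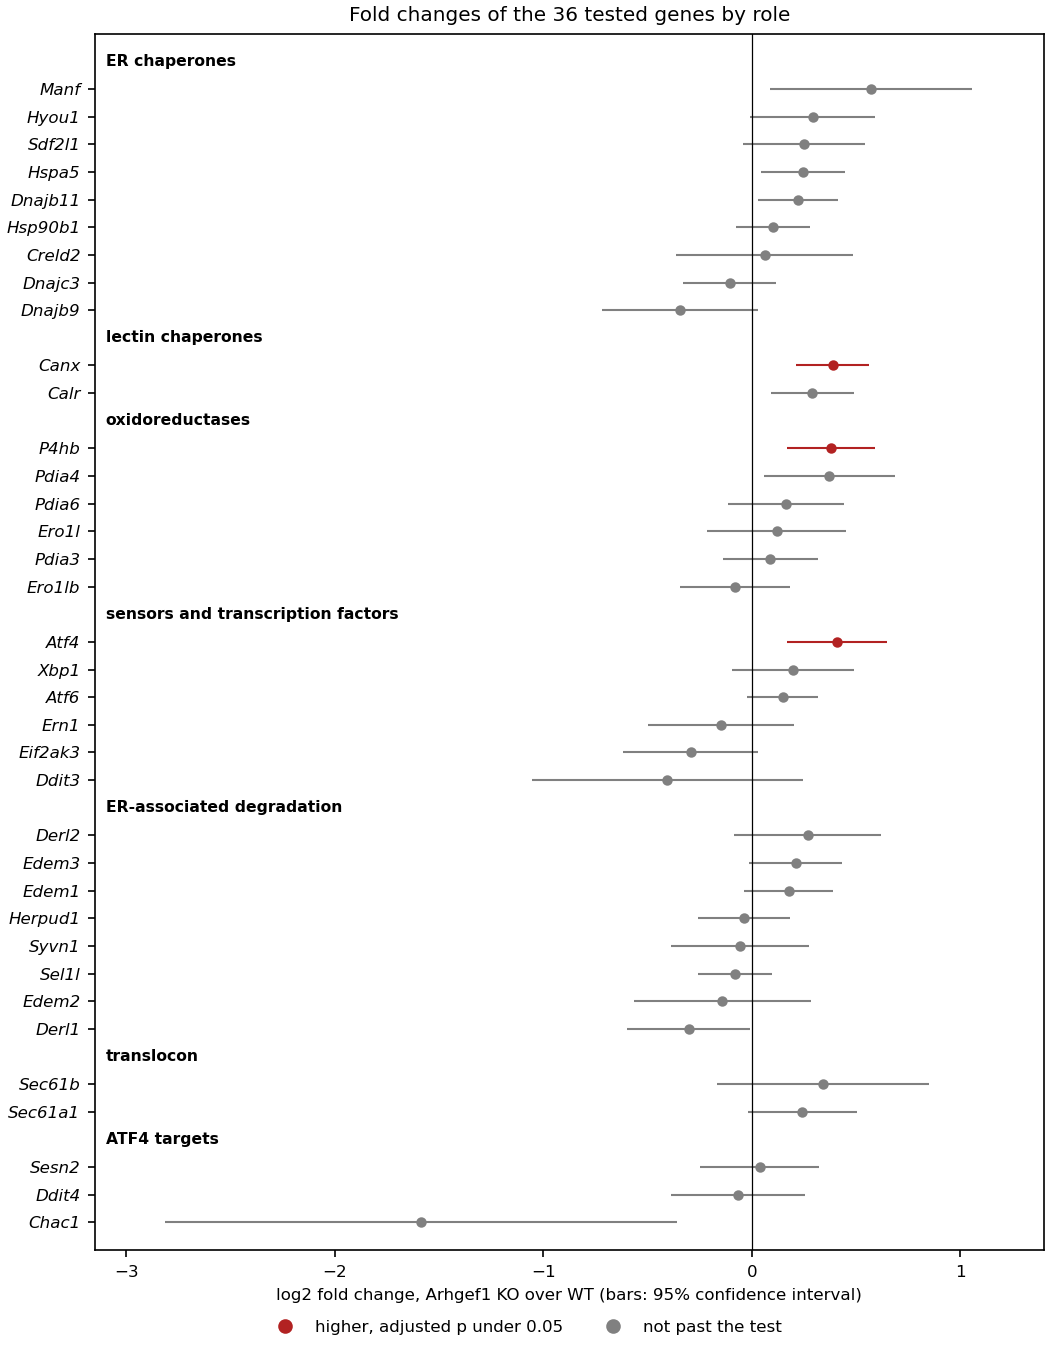
Log2 fold change of Arhgef1-/- over WT (x axis) for the 36 tested genes, grouped by role (y axis), with 95% confidence intervals as bars and the genes that rose in red. Canx, P4hb and Atf4 lie between 0.38 and 0.41, and Chac1 is lowest at -1.59 with the widest interval.

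The promoters of the risen genes are printed first, because short promoter elements define much of this pathway. RefSeq promoter windows on GRCm38.p6, the assembly also called mm10, run from 250 bases before to 50 bases after a start site. They matched 34 of the 39 genes, and no window was matched for Hyou1, Manf, Atf6, Derl1 and Sec61a1. Each window was searched on both strands for the ER stress response element ERSE (CCAAT and CCACG with 9 bases of any kind between them), for ERSE-II (ATTGG and CCACG with 1 base between them), for the unfolded protein response element UPRE (TGACGTGG) and for the core of the composite site bound by ATF4 and C/EBP proteins, CARE (TGATGNAA). ERSE and ERSE-II share their CCACG end, which UPRE holds on its opposite strand, so matches of these could overlap. The genes lie at chr11:50293961-50325673 (Canx, minus strand), chr11:120560298-120573253 (P4hb, minus strand) and chr15:80255184-80257541 (Atf4, plus strand), and their exons are shared with no other annotated gene. The 250 bases before the start are shown 5′ to 3′ on the strand of the gene, with the matched letters in capitals.
Canx (chr11:50325674-50325923, minus strand): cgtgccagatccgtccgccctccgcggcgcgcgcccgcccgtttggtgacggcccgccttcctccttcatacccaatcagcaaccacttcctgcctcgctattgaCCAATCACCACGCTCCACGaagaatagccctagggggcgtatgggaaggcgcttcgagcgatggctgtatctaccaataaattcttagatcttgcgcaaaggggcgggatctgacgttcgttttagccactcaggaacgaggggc
P4hb (chr11:120573254-120573503, minus strand): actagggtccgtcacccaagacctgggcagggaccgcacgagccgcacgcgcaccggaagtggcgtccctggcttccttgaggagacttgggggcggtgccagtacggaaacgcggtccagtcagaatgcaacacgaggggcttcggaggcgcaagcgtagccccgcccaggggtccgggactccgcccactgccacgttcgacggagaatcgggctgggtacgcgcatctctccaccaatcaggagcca
Atf4 (chr15:80254934-80255183, plus strand): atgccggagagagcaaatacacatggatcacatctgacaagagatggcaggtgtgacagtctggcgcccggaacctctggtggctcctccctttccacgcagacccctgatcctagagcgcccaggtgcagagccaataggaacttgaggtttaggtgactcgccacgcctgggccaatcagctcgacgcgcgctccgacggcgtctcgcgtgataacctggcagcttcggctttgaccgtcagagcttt
Canx held an ERSE that began 145 bases before its start, and the stretches printed for P4hb and Atf4 held no match to the searched letters.

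An ERSE was found in 10 of the 34 genes, or 29.4%, beside 0.137% of the 27025 genes with a window in the RefSeq table. These 10 were Canx, Calr, Hspa5, Hsp90b1, Dnajc3, Creld2, Pdia6, Ero1lb, Syvn1 and Derl3. ERSE-II was found in Herpud1 and Dnajb11, against 0.0444% of all genes. CARE was found in Asns, Chac1, Trib3 and Herpud1, against 4.51% of all genes, and UPRE in 0 of the 34, against 0.714%. The stretches below are the best known targets of these elements, shown with 20 bases on each side where the window allowed it and with matched letters in capitals.
Hspa5 (chr2:34772005-34772063, plus strand): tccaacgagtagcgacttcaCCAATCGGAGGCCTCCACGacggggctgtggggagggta
Hsp90b1 (chr10:86705513-86705676, minus strand): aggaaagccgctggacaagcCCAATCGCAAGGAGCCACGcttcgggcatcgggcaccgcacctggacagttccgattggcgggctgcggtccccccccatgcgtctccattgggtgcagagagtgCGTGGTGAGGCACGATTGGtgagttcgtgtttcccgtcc
Calr (chr8:84847055-84847113, minus strand): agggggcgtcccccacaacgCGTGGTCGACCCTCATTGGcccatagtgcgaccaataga
Herpud1 (chr8:94386297-94386407, plus strand): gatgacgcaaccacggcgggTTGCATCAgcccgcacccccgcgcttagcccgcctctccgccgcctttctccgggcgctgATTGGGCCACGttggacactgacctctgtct
Chac1 (chr2:119351029-119351076, plus strand): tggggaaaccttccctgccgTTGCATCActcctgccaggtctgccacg
Asns (chr6:7693210-7693252, minus strand): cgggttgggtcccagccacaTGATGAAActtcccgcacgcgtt
Hsp90b1 held an ERSE on each strand, and Herpud1 held a CARE before its ERSE-II. Of the 9 tested genes with an ERSE, 1 rose (Canx) and 0 fell, and their log2 fold changes ran from -0.11 to 0.39 around a median of 0.10. The 22 tested genes whose window held no ERSE had a median of 0.10 too, and 2 of them rose. A match describes letters in a window and not a bound site.

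Calnexin and calreticulin, the lectins that hold newly made glycoproteins until they fold, were both higher in every Arhgef1-/- library, and Canx rose. Canx had 416, 413 and 373 CPM in Arhgef1-/- libraries, against 312, 314 and 293 CPM in WT. Every Arhgef1-/- library lay above every WT library, and Canx rose by 0.39 ± 0.08 on the log2 scale (SE, edgeR adjusted p = 0.00567), a fold of 1.31 with a 95% interval of 1.16 to 1.48. Its call held without any 1 of the 6 libraries, with adjusted p from 0.00616 to 0.0328. Calr, the soluble relative of Canx, had 199, 194 and 179 CPM in Arhgef1-/-, against 152, 152 and 163 CPM in WT. The Calr groups did not overlap either, yet its log2 fold change of 0.29 ± 0.09 did not pass the test (adjusted p = 0.0611). Calr passed with DESeq2 (adjusted p = 0.0257) and with total counts in place of TMM (adjusted p = 0.0394). Summed over both genes the level was 591 ± 34.7 CPM in Arhgef1-/- and 462 ± 5.42 CPM in WT (SD, n = 3 each).

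Among the disulfide isomerases and oxidases, P4hb rose and the other 5 genes did not pass. P4hb, which encodes protein disulfide isomerase itself, had 171, 180 and 155 CPM in Arhgef1-/-, against 135, 130 and 124 CPM in WT. No libraries of the 2 groups overlapped, and its log2 fold change was 0.38 ± 0.10 (adjusted p = 0.0219). The call was lost without Arhgef1-/- replicate 2 (0.33) and without WT replicate 1 (0.41), 2 (0.38) or 3 (0.35). Pdia4, an isomerase with several thioredoxin domains, had 48.7, 57.2 and 63.3 CPM in Arhgef1-/- and 49.3, 40.3 and 41.2 CPM in WT. Its lowest Arhgef1-/- library fell just below the highest WT library (0.37 ± 0.15, adjusted p = 0.139). Pdia3, the isomerase that works with the lectin chaperones, had 342, 335 and 264 CPM in Arhgef1-/-, against 334, 263 and 286 CPM in WT. Its groups overlapped widely, with a log2 fold change of 0.09 and a 95% interval of -0.14 to 0.32. Pdia6 (0.16) and the oxidases Ero1l (0.12) and Ero1lb (-0.08), which reoxidise the isomerases, did not pass either, with adjusted p from 0.527 to 0.770.

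The general ER chaperones gave 0 rises and 0 falls in 9 tested genes by edgeR, with a median log2 fold change of 0.22. At an unadjusted p under 0.05, 3 were higher (Hspa5, Manf and Dnajb11), where 1334 of all 11504 tested genes were. Hspa5 (BiP), the Hsp70 of the ER and the protein that keeps the sensors inactive, had 604, 827 and 668 CPM in Arhgef1-/-, against 587, 614 and 571 CPM in WT. Replicate 2 of Arhgef1-/- was far above the others, while replicate 1 lay within the WT range (0.24 ± 0.10, adjusted p = 0.129). Without Arhgef1-/- replicate 1 Hspa5 passed the test (0.34, adjusted p = 0.0330). Hsp90b1 (GRP94), the Hsp90 of the ER, had 974, 1049.7 and 849 CPM in Arhgef1-/- and 942, 922 and 815 CPM in WT. Those groups overlapped, and the log2 fold change was 0.10 ± 0.08 with a 95% interval of -0.08 to 0.28 (adjusted p = 0.542). Other annotated genes share 15.7% of the Hsp90b1 exon bases.

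The cofactors of BiP did not move in 1 direction. Dnajb11, a J-domain cofactor of BiP, had 180, 189 and 186 CPM in Arhgef1-/-, against 158, 159 and 160 CPM in WT. The groups were tight and did not overlap, and the log2 fold change was 0.22 ± 0.09 (adjusted p = 0.148). Dnajb9, the J-domain protein that holds BiP on the luminal part of IRE1, had 25.5, 27.3 and 24.7 CPM in Arhgef1-/- and 31.1, 28.6 and 38.8 CPM in WT. All its Arhgef1-/- libraries lay below all WT libraries (-0.34 ± 0.18, adjusted p = 0.264). Dnajc3, which encodes a further J-domain protein, was at -0.11, the nucleotide exchange factor gene Hyou1 at 0.29, Sdf2l1 at 0.25 and Creld2 at 0.06, all on the log2 scale. Manf, a secreted protein of the stress response, had 25.1, 43.3 and 30.6 CPM in Arhgef1-/- and 22.0, 16.0 and 28.7 CPM in WT. Its log2 fold change of 0.57 ± 0.23 had a 95% interval of 0.09 to 1.06 and did not pass (adjusted p = 0.138), and 9.25% of its exon bases are shared with other genes.

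Much of the upward lean of the chaperones lay in 1 library. Arhgef1-/- replicate 2 held the highest value of the 6 libraries in 7 of the 9 chaperone genes and in 15 of the 36 tested genes. Summed chaperone levels were 2187, 2601 and 2134 CPM in Arhgef1-/-, against 2153, 2129 and 1998 CPM in WT. Replicate 1 of Arhgef1-/- thus lay just above the highest WT sum, replicate 3 lay within the WT range, and replicate 2 stood apart. Hspa5 and Hsp90b1 made up most of these sums. Gene by gene, Dnajb11 and Sdf2l1 lay above all WT libraries in every Arhgef1-/- library, and Dnajb9 lay below. Replicate 2 also had the highest sum of B and plasma cell markers, with 117, 139 and 99.2 CPM in Arhgef1-/- and 113, 73.9 and 130 CPM in WT. Igj, which plasma cells express strongly, had 6.52, 11.9 and 3.24 CPM in Arhgef1-/- and 4.21, 3.22 and 3.54 CPM in WT, while the plasma cell marker Sdc1 had at most 2 counts in any library. The part of such cells in the chaperone levels was not tested. Over the 36 genes the median log2 difference from the WT mean was 0.074, 0.215 and 0.083 in Arhgef1-/- replicates 1, 2 and 3.

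**Figure D2:**
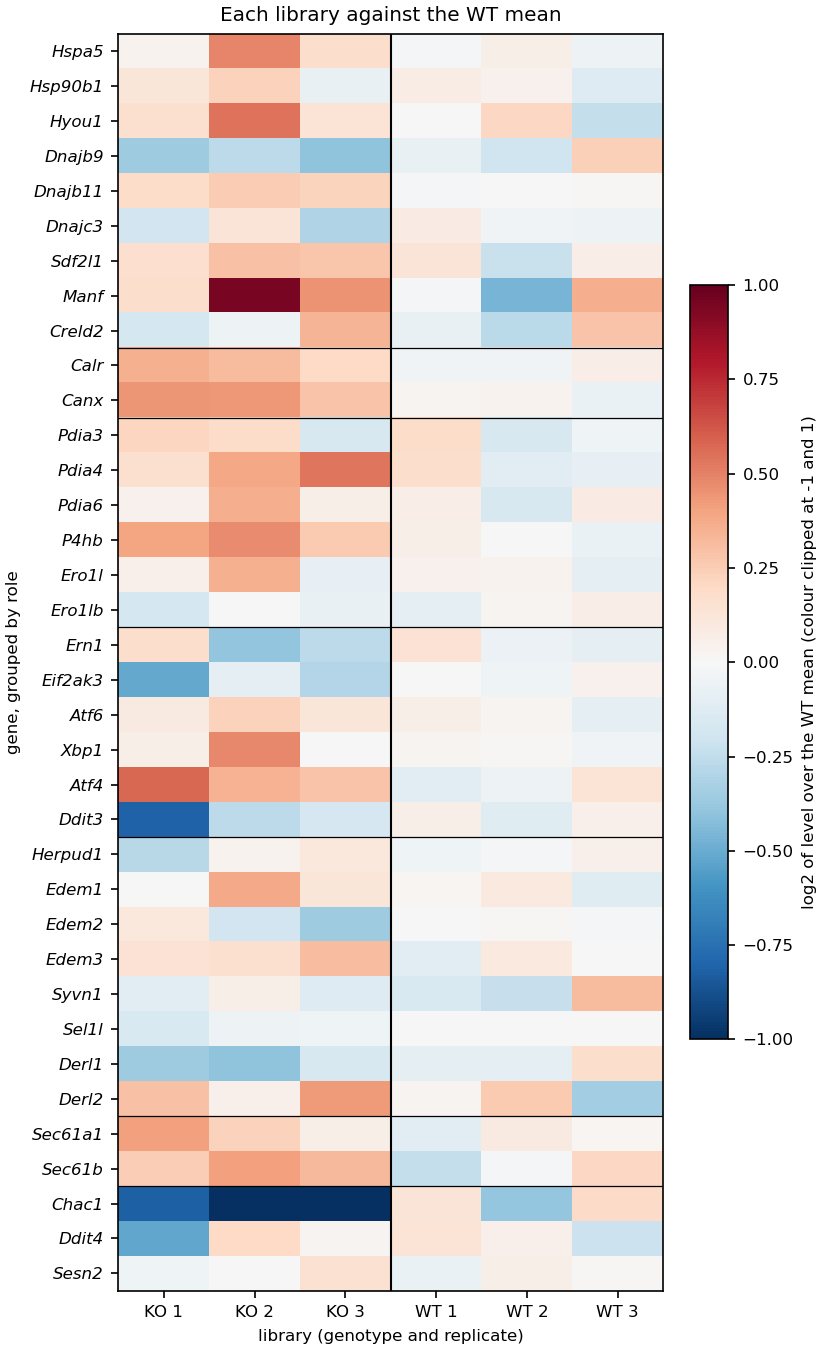
Log2 level of each library over the WT mean (colour, clipped at -1 and 1, with 0.5 CPM added to both) for the 36 tested genes (rows, grouped by role) in the 3 Arhgef1-/- and 3 WT libraries (columns). Canx, Calr, P4hb and Atf4 are red in all Arhgef1-/- columns, replicate 2 is the reddest among the chaperones, and Chac1 is blue.

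The sensors themselves did not pass the test. Ern1, which encodes the kinase and endonuclease IRE1, had 51.0, 34.2 and 37.5 CPM in Arhgef1-/- and 49.9, 43.4 and 42.2 CPM in WT. The highest Ern1 library was an Arhgef1-/- one, the lowest ones were as well, and the log2 fold change was -0.15 ± 0.17 (adjusted p = 0.676). Eif2ak3, which encodes the kinase PERK, had 31.9, 42.8 and 37.3 CPM in Arhgef1-/-, against 45.6, 44.4 and 47.3 CPM in WT. All Arhgef1-/- libraries lay below WT (-0.29 ± 0.15, adjusted p = 0.276), and 8.05% of its exon bases are shared with other genes. Atf6, the membrane-bound factor that is cut free under stress, had 400.3, 441 and 409 CPM in Arhgef1-/- and 392, 385 and 353 CPM in WT. For Atf6 all Arhgef1-/- libraries lay above WT (0.15 ± 0.08, adjusted p = 0.307).

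Of the transcription factors downstream, Atf4 rose and Xbp1 and Ddit3 did not pass. Atf4, whose protein is made more when eIF2α is phosphorylated, had 155, 132 and 127 CPM in Arhgef1-/-, against 97.0, 101 and 115 CPM in WT. Its groups did not overlap, and the log2 fold change was 0.41 ± 0.11 (adjusted p = 0.0301), a fold of 1.33. The call was lost without Arhgef1-/- replicate 1 (0.32) or 2 (0.43) and without WT replicate 1 (0.36) or 2 (0.38). Xbp1, whose RNA is spliced by IRE1, had 69.1, 92.5 and 66.3 CPM in Arhgef1-/- and 67.4, 66.8 and 64.6 CPM in WT. Replicate 2 of Arhgef1-/- stood alone above the rest (0.20 ± 0.14, adjusted p = 0.448), and counts per gene do not tell the spliced form from the unspliced. Ddit3 (CHOP), a factor induced by ATF4 under lasting stress, had 5.24, 7.86 and 8.44 CPM in Arhgef1-/-, against 9.96, 8.75 and 9.91 CPM in WT. All Ddit3 values were lower in Arhgef1-/-, but the log2 fold change of -0.40 ± 0.31 did not pass (adjusted p = 0.492). Exons of other annotated entries, among them another entry named Ddit3, share 10.9% of the Ddit3 exon bases.

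**Figure D3:**
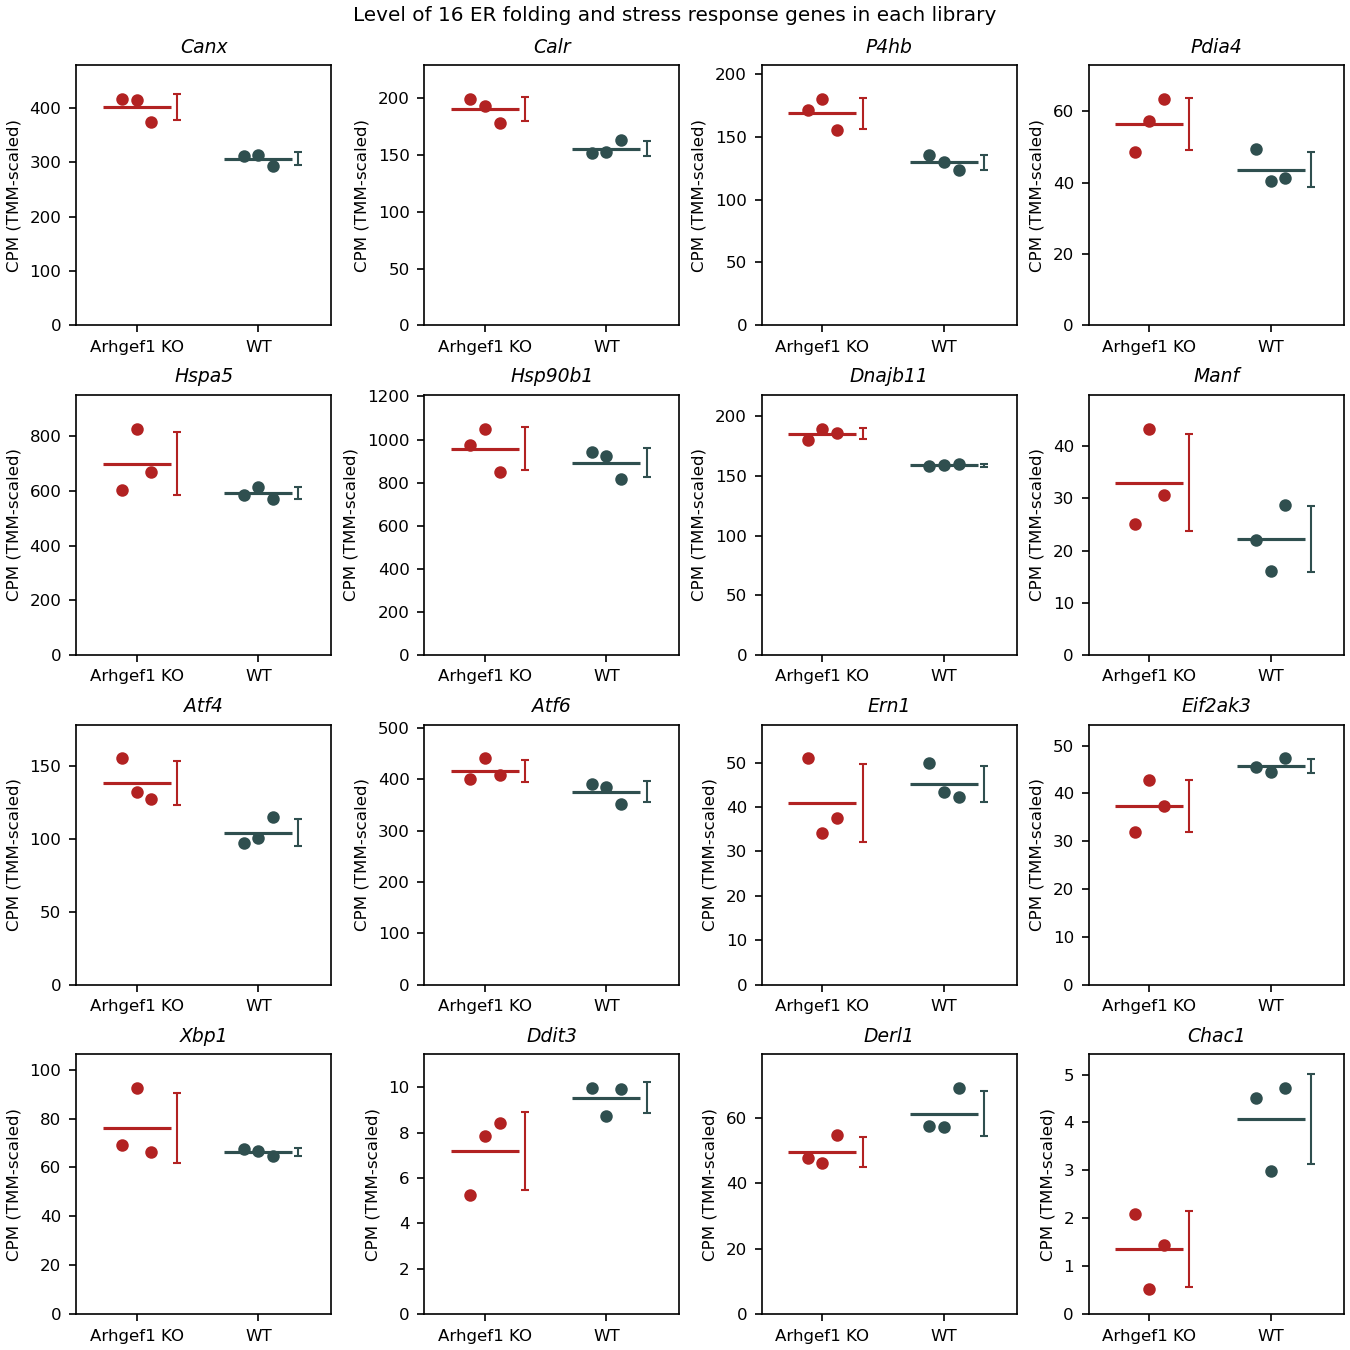
Level in CPM (y axes, each from 0) of 16 genes in the 3 Arhgef1-/- (red, left) and 3 WT (dark, right) libraries, with a line at each mean and a bar of 1 SD beside it. The groups are apart in Canx, Calr, P4hb, Dnajb11, Atf4 and Atf6 upward and in Eif2ak3, Ddit3, Derl1 and Chac1 downward. They overlap in Pdia4, Hspa5, Hsp90b1, Manf, Ern1 and Xbp1.

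Of the ATF4 targets 0 of 3 tested genes passed by edgeR. Chac1 alone was lower at an unadjusted p under 0.05, where 1234 of all 11504 tested genes were. Chac1, which encodes a glutathione-degrading enzyme, had 18, 5 and 17 counts in Arhgef1-/-, against 47, 26 and 40 counts in WT. In CPM these were 2.10, 0.517 and 1.45 in Arhgef1-/- and 4.50, 2.99 and 4.72 in WT, with no overlap. The log2 fold change of -1.59 ± 0.59 had a 95% interval of -2.82 to -0.36 and did not pass over all genes (adjusted p = 0.102). Ddit4 (REDD1), an inhibitor of mTORC1, had 73.7, 122 and 108 CPM in Arhgef1-/- and 117, 110 and 91.2 CPM in WT (-0.07 ± 0.15, adjusted p = 0.856). Sesn2, a leucine-sensing inhibitor of mTORC1, had 49.7, 51.1 and 57.0 CPM in Arhgef1-/- and 48.9, 53.4 and 51.7 CPM in WT. For Sesn2 the 95% interval of the log2 fold change ran from -0.25 to 0.32.

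The asparagine synthetase gene Asns and the pseudokinase gene Trib3, both classical ATF4 targets, did not pass the filter on low counts. Asns had 16, 9 and 0 counts in Arhgef1-/- and 10, 1 and 2 in WT. Trib3 had 4, 1 and 0 counts in Arhgef1-/- and 1, 2 and 4 in WT. Neither was called when the filter was left out.

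In ER-associated degradation misfolded proteins are trimmed, retrotranslocated and marked with ubiquitin, and 0 of its 8 tested genes rose or fell by edgeR. Derl1 alone was lower at an unadjusted p under 0.05, where 1234 of all 11504 tested genes were. The median log2 fold change was -0.05. Edem1, a mannosidase-like lectin that marks glycoproteins for disposal, had 261, 338 and 282 CPM in Arhgef1-/- and 264, 277 and 238 CPM in WT. The groups overlapped, with Arhgef1-/- replicate 2 well above the other libraries (0.18 ± 0.10, adjusted p = 0.326). Its relatives Edem3 (0.21) and Edem2 (-0.14) did not pass. Derl1, a channel component, had 47.7, 46.2 and 54.8 CPM in Arhgef1-/-, against 57.5, 57.2 and 69.1 CPM in WT. All Arhgef1-/- libraries lay below WT, with a log2 fold change of -0.30 ± 0.14 (adjusted p = 0.211). Its relative Derl2 leaned the other way (0.27 ± 0.17, adjusted p = 0.382), and Derl3 had 3, 6 and 7 counts in Arhgef1-/- and 3, 4 and 3 in WT, too few to be tested.

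For the ubiquitin ligase complex of this pathway no gene passed. Its adaptor gene Sel1l had 229, 246 and 247 CPM in Arhgef1-/-, against 254, 254 and 256 CPM in WT, and although the groups did not overlap the log2 fold change was -0.08, with a 95% interval of -0.26 to 0.10. The ligase gene Syvn1 (HRD1) had a log2 fold change of -0.06 (95% interval -0.39 to 0.28). Herpud1, a scaffold of the same complex and a target of ATF4 and ATF6, had 149, 184 and 194 CPM in Arhgef1-/- and 175, 179 and 186 CPM in WT (-0.04 ± 0.11, adjusted p = 0.888).

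The translocon genes encode the channel through which new proteins enter the ER, and neither passed. Sec61a1, the channel subunit, had 105, 93.3 and 82.8 CPM in Arhgef1-/- and 73.3, 84.4 and 80.2 CPM in WT. Its lowest Arhgef1-/- library lay within the WT range (0.24 ± 0.12, adjusted p = 0.260), and 8.16% of its exon bases are shared with other genes. Sec61b, a small subunit, had 14.7, 16.4 and 15.5 CPM in Arhgef1-/-, against 10.3, 12.2 and 14.3 CPM in WT. Those groups did not overlap, and the log2 fold change was 0.34 ± 0.24 (adjusted p = 0.445).

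Per exon length, the abundance of these genes spanned more than 3 orders of magnitude in the same cells. Hsp90b1 was the most abundant, at 237 CPM per kb of exons in Arhgef1-/- and 221 CPM per kb in WT. Hspa5 followed at 165 CPM per kb in Arhgef1-/- and 139.6 CPM per kb in WT, then Pdia3 at 99.8 CPM per kb in Arhgef1-/- and 93.8 CPM per kb in WT. Of the sensors, Atf6 was far more abundant than the kinases. Atf6 stood at 45.2 CPM per kb in Arhgef1-/- and 40.8 CPM per kb in WT. Eif2ak3 had 6.19 CPM per kb in Arhgef1-/- and 7.60 CPM per kb in WT, and Ern1 5.01 CPM per kb in Arhgef1-/- and 5.53 CPM per kb in WT. Within the ATF4 branch, Atf4 at 58.6 CPM per kb in Arhgef1-/- and 44.2 CPM per kb in WT stood above Ddit3 (4.19 CPM per kb in Arhgef1-/-, 5.57 CPM per kb in WT) and Chac1 (0.827 CPM per kb in Arhgef1-/-, 2.49 CPM per kb in WT). The ATF4 target Ddit4 was at 57.6 CPM per kb in Arhgef1-/- and 60.4 CPM per kb in WT, and Herpud1 was at 75.2 CPM per kb in Arhgef1-/- and 77.3 CPM per kb in WT. Lengths are those of all annotated exons of a gene joined, so a gene with unused exons is set too low.

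**Figure D4:**
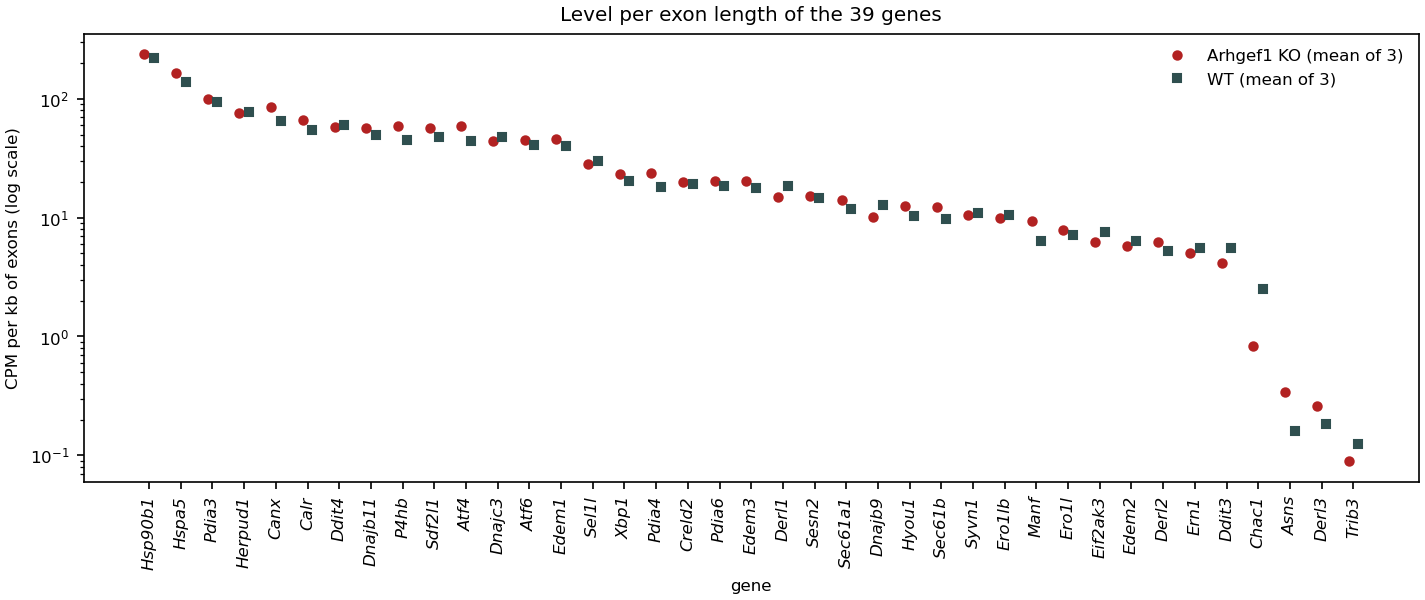
Mean level per exon length (y axis, CPM per kb, log scale) of the 39 genes in Arhgef1-/- (red circles) and WT (dark squares), ordered by level. Hsp90b1 and Hspa5 are highest, and Chac1, Asns, Derl3 and Trib3 form the low end, where Chac1 is at 0.827 CPM per kb in Arhgef1-/- and 2.49 CPM per kb in WT.

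Summed over the 39 genes the level was 5432, 6081 and 5333 CPM in Arhgef1-/-, against 5196, 5119 and 4946 CPM in WT. The sums did not overlap and had a ratio of 1.10, and as a share of all counts they made up 0.534% to 0.613% in Arhgef1-/- and 0.491% to 0.51% in WT. By role the ratio of summed levels was 1.28 for the lectin chaperones, 1.20 for the translocon and 1.12 for the oxidoreductases. It was 1.11 for the sensors and transcription factors, 1.10 for the general chaperones, 1.03 for degradation and 0.964 for the ATF4 targets. Such sums follow the most abundant genes of a role. In Arhgef1-/- Atf6 averaged 417 of the 717 CPM of the sensors and transcription factors. Of those 6 genes 3 had log2 fold changes above zero and 3 below, with a median of 0.00014. Sec61a1 made up most of the translocon sum, and Ddit4 and Sesn2 most of the ATF4 target sum.

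Other genes of the same pathways were taken from a list of 121 symbols, of which 117 were in the table and 109 were tested. Of these 9 rose, or 8.26%, and 1 fell, or 0.917%, where 5.09% and 4.58% of all tested genes rose and fell, and the median log2 fold change was 0.06. The rises without Arhgef1-/- replicate 2, WT replicate 1 or WT replicate 3 numbered 4, 5 and 5. In translocation and signal peptide removal 0 of 16 genes passed the edgeR test (2 at an unadjusted p under 0.05). In the list of further disulfide and proline isomerases 0 of 11 did (0 at an unadjusted p under 0.05). Of all 11504 tested genes 2568 had an unadjusted p under 0.05.

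In N-glycosylation and the lectin cycle 2 of 17 genes rose, or 11.8%, where 5.09% of all tested genes did, and the median was 0.16. Both belong to the oligosaccharyltransferase that attaches glycans. Magt1 had 219.8, 246 and 216 CPM in Arhgef1-/-, against 172, 196 and 167 CPM in WT (0.35 ± 0.10, adjusted p = 0.0283). Stt3b, a catalytic subunit, had 157, 171 and 141 CPM in Arhgef1-/-, against 121, 124 and 124 CPM in WT (0.35 ± 0.10, adjusted p = 0.0414). Neither pair of groups overlapped. Magt1 lost its call without Arhgef1-/- replicate 2 (0.29) or WT replicate 1 (0.33) or 3 (0.31). Stt3b lost its call without Arhgef1-/- replicate 1 (0.35) or 2 (0.27), without WT replicate 1 (0.34), 2 (0.35) or 3 (0.35), and with the replicate number as a block (adjusted p = 0.0637).

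In the further degradation list 1 of 18 genes rose, or 5.56%, where 5.09% of all tested genes did. March6, an ER ubiquitin ligase that also controls sterol synthesis enzymes, had 517, 514 and 547 CPM in Arhgef1-/-, against 419, 479 and 331 CPM in WT (0.36 ± 0.10, adjusted p = 0.0367). It passed without WT replicate 2 and lost its call without WT replicate 1 (0.38) or 3 (0.23) and without Arhgef1-/- replicate 1 (0.38), 2 (0.37) or 3 (0.33). Among 15 stress regulators 1 rose, or 6.67%, beside the same 5.09% of all tested genes. This was Eif2s1, which encodes eIF2α, the substrate of PERK. Eif2s1 had 91.3, 97.9 and 94.8 CPM in Arhgef1-/-, against 60.0, 69.1 and 62.8 CPM in WT (0.57 ± 0.12, adjusted p = 0.00482). Its groups lay well apart, and its call held without any 1 of the libraries.

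The amino acid part of the ATF4 response held 5 of the 9 rises, or 15.6% of its 32 tested genes beside 5.09% of all tested genes. It also held 1 fall, or 3.12% beside 4.58%, and its median was 0.10. At an unadjusted p under 0.05 by edgeR, 8 of the 32 passed, where 2568 of all 11504 tested genes did. Of the 8, those not called were Cebpg (0.30) and Cebpb (-1.51, adjusted p = 0.186). Slc7a5, the large neutral amino acid transporter, had 41.3, 43.5 and 54.7 CPM in Arhgef1-/-, against 22.8, 25.4 and 20.5 CPM in WT (1.02 ± 0.17, adjusted p = 7.77e-04). The serine synthesis gene Psat1 had 39.2, 45.3 and 73.1 CPM in Arhgef1-/-, against 18.6, 20.6 and 28.9 CPM in WT (1.22 ± 0.22, adjusted p = 0.00161). The isoleucyl-tRNA synthetase gene Iars had 113, 141 and 99.2 CPM in Arhgef1-/-, against 67.8, 83.6 and 65.7 CPM in WT (0.70 ± 0.14, adjusted p = 0.00326). For these 3 genes the genotypes did not overlap, and the 3 calls held without any 1 library. The other rises were the arginine and lysine transporter gene Slc7a1 (0.60), which lost its call without Arhgef1-/- replicate 2 (0.50), and the mitochondrial serine enzyme gene Shmt2 (0.62). Shmt2 kept its call without Arhgef1-/- replicate 1 and lost it without replicate 2 (0.62) or 3 (0.54) or WT replicate 1 (0.51), 2 (0.71) or 3 (0.65), and with the replicate number as a block (adjusted p = 0.0627). The gene that fell was the stress factor gene Atf3, with 41.1, 62.6 and 46.7 CPM in Arhgef1-/- and 73.0, 64.8 and 74.7 CPM in WT (-0.50 ± 0.15, adjusted p = 0.0485). Its call was lost without any 1 library but Arhgef1-/- replicate 2, with values of -0.56 to -0.37, and also with total counts in place of TMM (-0.47, adjusted p = 0.0632) and with the replicate number as a block (-0.52, adjusted p = 0.0578). Slc7a1, Shmt2, Atf3, Cebpg, Cebpb, Gpt2 and Prdx4 were named after their values were seen.

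**Figure D5:**
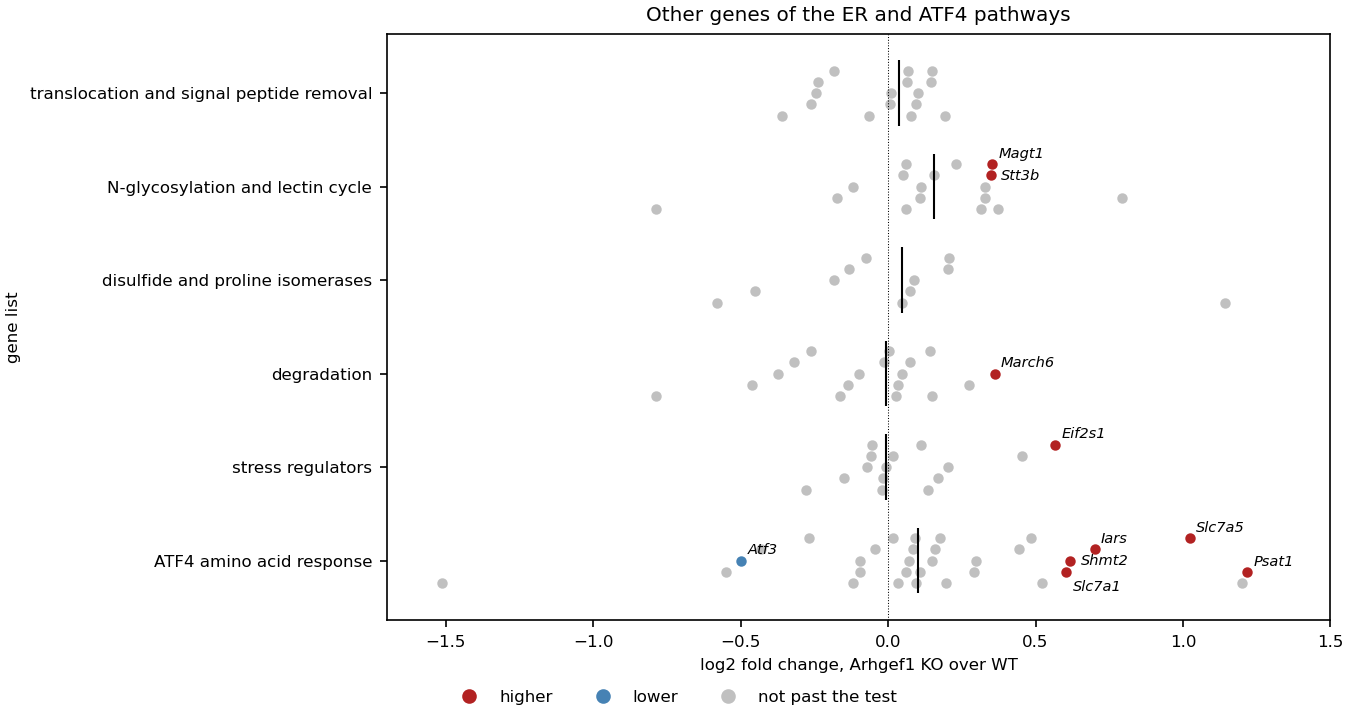
Log2 fold change of Arhgef1-/- over WT (x axis) of the 109 tested further genes in 6 lists (y axis), with genes that rose in red, the gene that fell in blue and a black line at each median. Of the genes that rose Psat1 and Slc7a5 are past 1, as are Gpt2 (1.20) and Prdx4 (1.14), which did not pass, while Cebpb lies at -1.51, and the medians lie between -0.0062 and 0.16.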

How the data were processed

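The deposited values are raw counts, whole numbers for each of 14788 symbols in each library. STAR, HTSeq, DESeq2 and mm10 are named in the submitters' processing notes, while roles, versions, annotation, any gene filter and the strand setting were not given in the sources used here. Reads of genes that overlap cannot be told apart if strand was ignored. Columns were matched to the labels by genotype and number.

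For the tests, edgeR 4.0.16 (R 4.3.3) was run on the counts: filterByExpr left 11504 genes, TMM gave scaling factors of 0.977 to 1.02, and a quasi-likelihood model of genotype was fitted to all 6 libraries, with Benjamini-Hochberg adjustment over all tested genes. Standard errors are the log2 fold change divided by the root of its F value. The procedure was tested on simulated counts, with 50 genes of more than 5 CPM set to each fold. It recovered 22% of them at a fold of 1.3, 52% at 1.5, 86% at 2 and 36% at 0.667, with 10 false calls. Fewer genes were changed there than the 1113 called in the data, and genes of lower level were not covered. These rates may therefore differ from those in the data. Changes of the smaller sizes can thus go uncalled. Exon lengths came from GENCODE vM21 and promoters from RefSeq. Replicates of a group differed by more than counting noise.

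The members and lists were chosen with earlier results of these data known. Every member is named. All library values are given for members that passed the test, the 6 sensors and transcription factors and the most abundant gene of each role, and, for the further lists, up to 3 called genes per list by adjusted p. Members given in full beyond this rule were added after their values were seen. Alternatives were DESeq2 size factors, total counts, no filter, a filter of 5 CPM in 3 libraries, DESeq2 1.42.0, limma-voom (limma 3.58.1), a block on replicate number, and omission of each library in turn.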

Additional observations from a re-analysis of the deposited data

How the results depend on the processing

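Canx passed the test under all 13 alternatives, with log2 fold changes of 0.36 to 0.44. P4hb and Atf4 passed under all 7 alternatives that kept the 6 libraries. Leaving out 1 library left 310 to 583 genes higher and 264 to 489 lower over the whole table, 1 to 3 of the members higher, 4 to 7 of the further genes higher and 0 to 1 lower, and a member median of 0.050 to 0.18. The fall of Atf3 was lost with total counts (0 further genes lower) and with the replicate block (0 lower). With the replicate block 3 members were higher, with adjusted p of 0.0112 for Canx, 0.0343 for P4hb and 0.0498 for Atf4, and the member median was 0.13. Correlations of same-numbered deviations from the group means were 0.038, -0.033 and -0.033, beside -0.033 to 0.062 for unlike numbers. Such values from 3 libraries a group cannot decide whether the replicate numbers pair the libraries. Shmt2 (edgeR adjusted p = 0.0627) and Stt3b (0.0637) lost their calls under the block. Leaving out 1 library turned the sign of genes near zero: values ran from -0.11 to 0.23 for Creld2, -0.020 to 0.21 for Ero1l, -0.11 to 0.073 for Herpud1, -0.16 to 0.13 for Syvn1, -0.22 to 0.12 for Ddit4 and -0.024 to 0.080 for Sesn2. The cause was not tested. With 3 libraries a group, genes of few counts such as Chac1 have wide intervals.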
